A study of Mus musculus with 4 samples.

Results

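The HIF pathway is the system by which animal cells read oxygen. HIF alpha subunits are made continuously, and when oxygen is present prolyl hydroxylases modify them so that VHL, the substrate receptor of a ubiquitin ligase, marks them for the proteasome, while an asparaginyl hydroxylase blocks their binding to coactivators. When oxygen falls, the alpha subunits persist, pair with an ARNT beta subunit and activate genes of glycolysis, angiogenesis and survival, among them genes of the hydroxylases themselves. The genes described here are those of this core, namely the alpha subunits *Hif1a*, *Epas1* (HIF-2 alpha) and *Hif3a*, the beta subunits *Arnt* and *Arnt2*, the prolyl hydroxylases *Egln1* (PHD2), *Egln2* (PHD1) and *Egln3* (PHD3), the asparaginyl hydroxylase *Hif1an* (FIH) and *Vhl*. They were chosen by symbol as the core of the pathway, with earlier results of these data known, and make up 10 of the 39179 Ensembl genes listed for each library.

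The libraries were made from polyadenylated RNA of B16F1, a mouse melanoma cell line, 2 from the parental cells as controls and 2 from tumor repopulating cells (TRCs), and both groups carry the numbers 1 and 3. Control cells were grown in 2D culture. TRCs are the cells that formed spheroids from single B16F1 cells in soft 3D fibrin gels of 90 Pa and were isolated on day 5. The groups thus differ in gel and in selection, and these cannot be told apart. The time in culture of the control cells is not given in the sources used here, so it may differ as well. No gene was altered and no agent is named in the labels. No source used here says whether the libraries of a group came from separate cultures, so p-values measure the spread between these libraries, which may be technical.

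Each library held between 35948295 and 43511554 counts on genes, and 3 counts, taken as the detection floor, correspond to 0.0689 to 0.0835 CPM (counts scaled to a common library total), a bound that covers counting error only. Genes with at least 1 CPM in at least 2 libraries were tested, which were 11483 genes, with edgeR's exact test and Benjamini-Hochberg adjustment over all of them (FDR). Alignments that were not unique, which are assigned to no gene, made up 15.2% to 18.3% of alignments in the other 3 libraries and 25.2% in TRC replicate 3. All 10 melanocyte markers of a list were tested genes. Their summed level was 16259 to 19467 CPM in control cells and 24645 to 27411 CPM in TRCs. *Dct* alone went from a mean of 5008 CPM in control cells to 10579 CPM in TRCs. In TRCs 2 of the 10 were higher at FDR under 0.05 and 0 lower, against 8.81% and 7.05% of all genes tested. The median log2 fold change of the 10 was 0.41. Of the leukocyte and endothelial markers, 4 of 6 in each list had no count in any library, including *Ptprc* and *Cdh5*, and the summed level was 1.76 to 4.16 CPM and 1.63 to 1.85 CPM for leukocytes and 0.112 to 0.198 CPM and 0.048 to 0.144 CPM for endothelial cells, in control cells and TRCs respectively. The 6 fibroblast markers summed to 9.82 to 11.3 CPM in control cells and 3.10 to 5.67 CPM in TRCs. Of the 3 tested, *Col1a2* was lower in TRCs at FDR under 0.05, at a mean of 1.26 against 7.24 CPM. *Pdgfra* and *Col1a1* did not pass the test. Fewer cells of a type and less RNA per cell cannot be told apart in such bulk libraries.

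Of the 10 genes, 9 were tested, and 4 of them, *Hif1a*, *Egln1*, *Egln3* and *Vhl*, were upregulated in TRCs at FDR under 0.05. The other 5, *Epas1*, *Arnt*, *Arnt2*, *Egln2* and *Hif1an*, did not pass the test, and *Hif3a* was at the detection floor and was not tested. Across all genes tested, 15.9% were called, with 8.81% higher and 7.05% lower in TRCs. The libraries of the groups did not overlap for 7 of the 9 genes, against 60.6% of all genes tested, and 3 of the 9 rose by at least 1 on the log2 scale, against 7.7%. None of the 9 genes was called lower, and none had an unadjusted p under 0.05 in that direction in the exact test, nor was one called lower by edgeR's quasi-likelihood test or DESeq2. The largest changes were those of the hydroxylases *Egln3* and *Egln1*, which ranked 26 and 63 among all genes tested by log2 fold change.

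**Figure D1:**
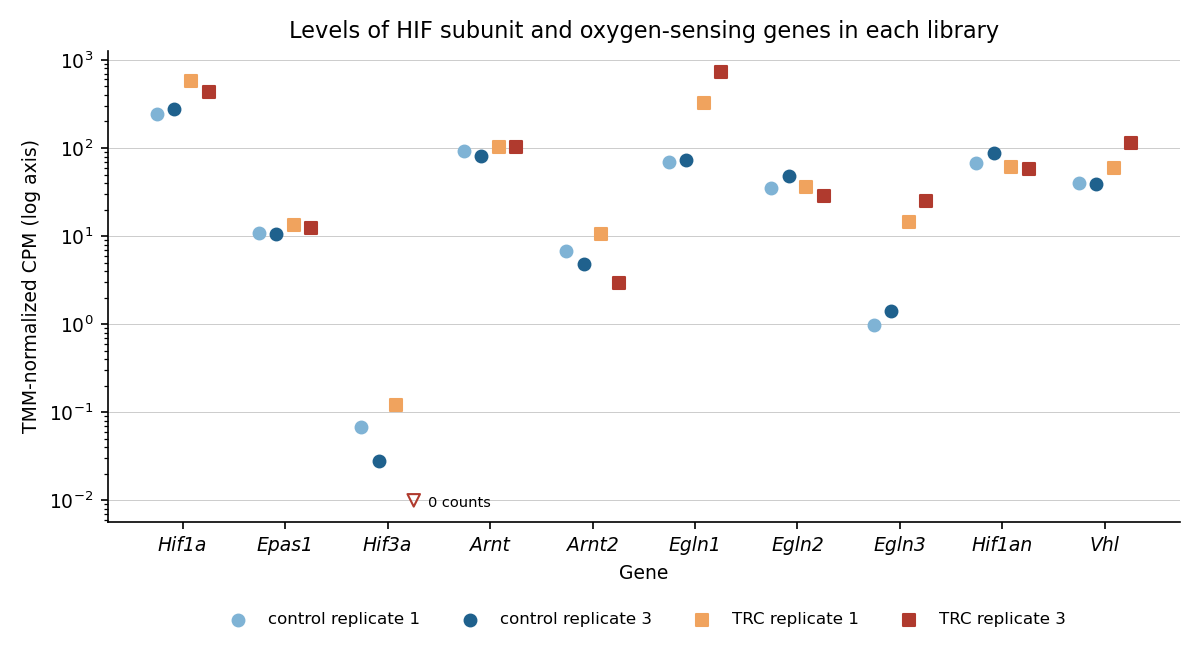
TMM-normalized CPM of the 10 genes (x axis) in each of the 4 libraries on a logarithmic y axis, with control libraries as circles and TRC libraries as squares. The open triangle marks the library with 0 counts of *Hif3a* and has no value on the axis. *Egln1* and *Egln3* show the widest gap between the groups, and *Arnt2* the widest gap between the TRC libraries among the genes tested.

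*Hif1a* encodes the oxygen-labile subunit of HIF-1 and lies on the plus strand of chromosome 12 from 73901375 to 73947530 in GRCm38 (ENSMUSG00000021109). Its level, in CPM scaled by TMM, came to 241 in control replicate 1 and 278 in control replicate 3, against 578 in TRC replicate 1 and 430 in TRC replicate 3. The groups did not overlap, as in the 30.2% of tested genes with both TRC values on top, and TRC replicate 1 was the higher of the pair. The mean of 2 libraries rose from 260 ± 26.2 (SD) to 504 ± 105 (SD) CPM, which is 0.96 as log2 fold change (SE 0.23 from DESeq2, FDR = 0.00209 in edgeR's exact test). When TRC replicate 1 was left out, the log2 fold change was 0.71 and *Hif1a* was not called. That fit holds 1 TRC library and so has less power.

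*Epas1*, the alpha subunit of HIF-2, is known from endothelial and other specialised cells. It was found at 10.8 and 10.4 CPM in control replicates 1 and 3 and at 13.5 and 12.3 CPM in TRC replicates 1 and 3. Although the groups did not overlap, the difference was small, with a log2 fold change of 0.28 (SE 0.28, FDR = 0.654 in the exact test) and a 95% interval from DESeq2 of −0.27 to 0.83. *Hif3a*, whose products include short forms that oppose HIF-1, had 3 and 1 counts in the control libraries and 5 and 0 counts in TRC replicates 1 and 3. At this depth a difference in *Hif3a* was not detectable.

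Levels per kilobase of exonic length compare different genes only roughly, since the length was taken over all annotated transcripts of a gene. Per kilobase, *Hif1a* took 95.5% and 96.2% of the summed level of the 3 alpha subunits in the control libraries. In the TRC libraries its share was 97.6% and 97.1%. The share of *Epas1* was 4.50% and 3.81% in the control libraries and 2.39% and 2.93% in the TRC libraries. These shares do not depend on the scaling between libraries. An exact permutation test of 2 against 2 libraries cannot give a two-sided p below 0.333, and the shares of *Hif1a* and *Epas1* both gave that p (0.444 after adjustment over 12 shares and ratios).

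*Arnt* encodes the constitutive beta subunit with which every HIF alpha subunit pairs, and it is shared with the aryl hydrocarbon receptor. The control libraries gave 92.1 CPM (replicate 1) and 82.0 CPM (replicate 3), and the TRC libraries 104 CPM and 103 CPM. The TRC libraries lay close together and just above the controls, with a log2 fold change of 0.25 (SE 0.20, FDR = 0.495 in the exact test) and a 95% interval from DESeq2 of −0.14 to 0.64. *Arnt2*, a paralog best known from neurons, was low and unsteady. It was at 6.83 and 4.81 CPM in the control libraries, at 10.5 CPM in TRC replicate 1 and at 2.91 CPM in the other TRC library. The TRC libraries thus lay on either side of the controls, and only 0.444% of the genes tested had a larger difference between the TRC libraries on the log2(CPM + 0.5) scale. The log2 fold change of 0.20 (SE 0.57, FDR = 0.857 in the exact test) turned to −1.02 when TRC replicate 1 was left out and to −0.027 without control replicate 3.

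The summed alpha subunits exceeded the summed beta subunits in each library when both were taken per kilobase. The log2 ratio was 1.79 in control replicate 1, 2.17 in control replicate 3, 2.81 in TRC replicate 1 and 2.50 in TRC replicate 3. The ratio was thus higher in both TRC libraries than in both controls, by 0.67 between the means (exact permutation p = 0.333, the smallest possible).

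The prolyl hydroxylases set the pace of HIF alpha turnover, and *Egln1* encodes the main one under ordinary oxygen. *Egln1* (ENSMUSG00000031987) spans chr8:124908587-124949324 on the minus strand. Control replicates 1 and 3 gave 69.3 and 72.8 CPM, TRC replicate 1 gave 323 CPM, and TRC replicate 3 gave 726 CPM. The controls were nearly level, and each TRC library lay far above them, while the TRC libraries also lay well apart from each other. The log2 fold change was 2.88 (SE 0.34, FDR = 6.39e-14 in the exact test), and it ranged from 2.18 without TRC replicate 3 to 3.34 without TRC replicate 1, with an FDR under 0.05 each time.

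*Egln3* encodes the prolyl hydroxylase best known as a strongly hypoxia-induced gene, and *Egln3* (ENSMUSG00000035105) spans chr12:54178981-54203860 on the minus strand. It was close to the filter in control cells, with 44 and 50 counts, or 0.989 and 1.42 CPM, in replicates 1 and 3. In TRC replicates 1 and 3 it had 606 and 1050 counts, or 14.6 and 25.2 CPM. The log2 fold change of 4.05 (SE 0.40, FDR = 2.66e-15 in the exact test) was the largest of the 9 genes tested, and with each library left out in turn it ranged from 3.59 to 4.38. When 1 CPM was required of 3 libraries rather than 2, it was still tested, at 4.06.

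*Egln2*, the paralog that is not known as a hypoxia-induced gene, went the other way in value without passing the test. It was at 34.9 and 48.2 CPM in control replicates 1 and 3 and at 36.5 and 28.6 CPM in TRC replicates 1 and 3. The groups overlapped, and the log2 fold change was −0.35 (SE 0.27, FDR = 0.403 in the exact test) with a 95% interval from DESeq2 of −0.88 to 0.18.

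**Figure D2:**
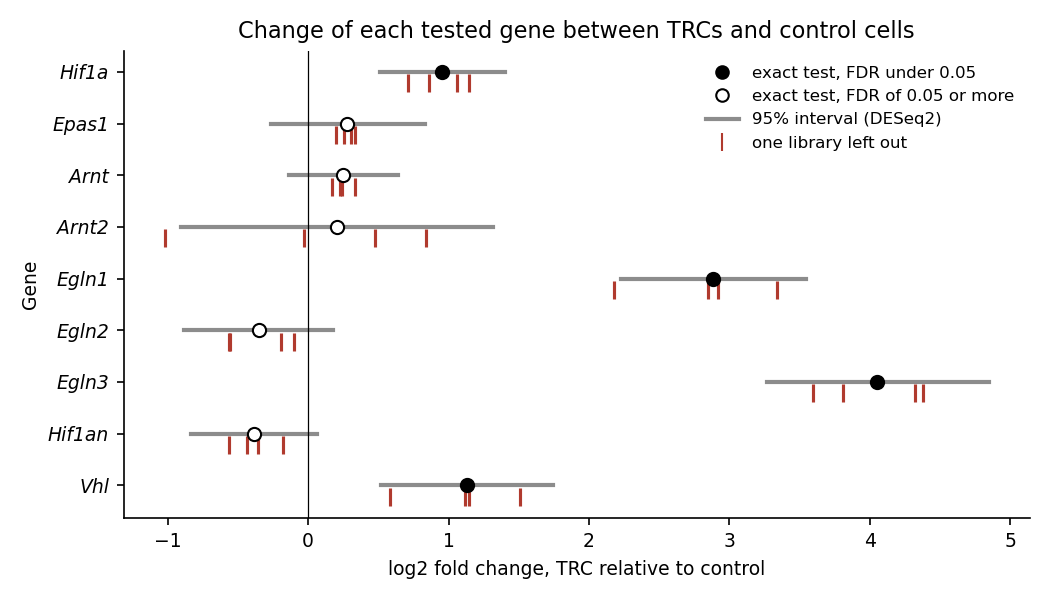
Log2 fold change of TRCs relative to control cells (x axis) for the 9 genes tested (y axis). Circles are the exact test's values, filled where the FDR was under 0.05, grey bars are 95% intervals from DESeq2, and red ticks are the values with 1 library left out. Only the circles of *Hif1a*, *Egln1*, *Egln3* and *Vhl* are filled, and the ticks of *Arnt2* lie on both sides of 0.

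The make-up of the prolyl hydroxylase mRNAs differed accordingly between the groups. Taken per kilobase, *Egln1* was 60.0% and 53.3% of the summed prolyl hydroxylases in the control libraries (replicates 1 and 3, in that order throughout), against 82.9% and 91.1% in the TRC libraries. *Egln2* made up 38.8% and 45.3% in the control libraries, less than *Egln1* in each, and 12.0% and 4.60% in the TRC libraries. *Egln3* was 1.16% and 1.40% of the sum in the control libraries and 5.05% and 4.27% in the TRC libraries, a minor part in each. With raw counts in place of counts per kilobase, the difference in the share of *Egln3* was 2.52 rather than 3.39 percentage points.

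The summed prolyl hydroxylases were below the summed alpha subunits in the control libraries, with log2 ratios per kilobase of −0.42 and −0.37. In the TRC libraries the ratio was above 0, at 0.11 in replicate 1 and 1.56 in replicate 3. The margin thus differed widely between the TRC libraries. With raw counts in place of counts per kilobase, the mean log2 ratio was −1.25 in the control libraries and 0.077 in the TRC libraries. Whether the ratio lay above 0 in TRC replicate 1 thus depended on the length scaling. The log2 ratio of *Egln1* to *Hif1a* was −1.09 and −1.22 in the control libraries, −0.13 in TRC replicate 1 and 1.47 in TRC replicate 3. All 3 prolyl hydroxylase shares and both of these ratios separated the groups, with an exact permutation p of 0.333 each, the smallest possible.

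**Figure D3:**
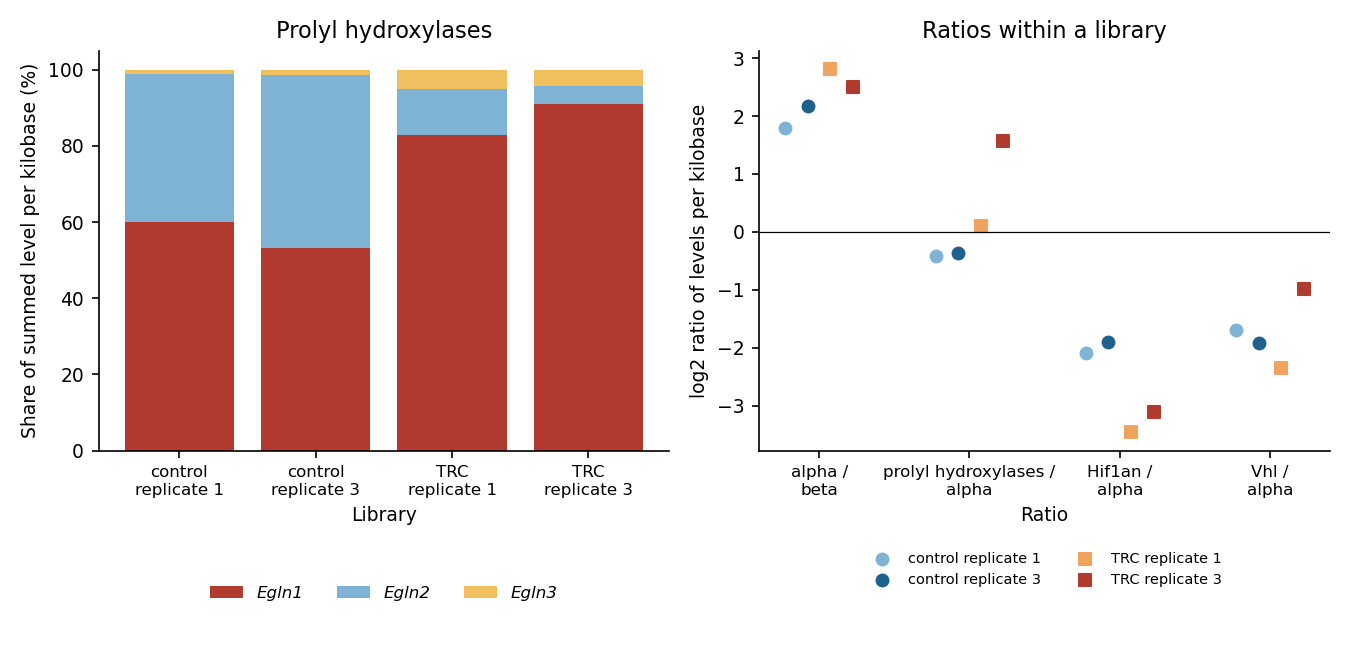
Left, share of each prolyl hydroxylase in their summed level per kilobase (y axis, percent) in each library. Right, log2 ratios of levels per kilobase within each library, with control libraries as circles and TRC libraries as squares. The *Egln1* share is 60.0% or less in the control libraries and 82.9% or more in the TRC libraries, and the *Vhl* to alpha ratio is the ratio shown in which the TRC libraries lie on either side of the controls.

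*Hif1an* encodes FIH, which hydroxylates an asparagine in the alpha subunits and so hinders the binding of p300 and CBP. The control libraries gave 66.9 CPM (replicate 1) and 87.2 CPM (replicate 3), and the TRC libraries 60.4 CPM and 57.5 CPM. Both TRC libraries lay below both controls, as did 30.4% of the genes tested, but the log2 fold change of −0.39 (SE 0.23) had an FDR of 0.271 in the exact test and a 95% interval from DESeq2 of −0.84 to 0.066. Relative to the summed alpha subunits, taken per kilobase, *Hif1an* had a log2 ratio of −2.08 and −1.89 in the control libraries. In the TRC libraries the ratio was −3.46 and −3.11, a difference of −1.30 (exact permutation p = 0.333, the smallest possible). Most of this difference lay in the alpha subunits, since *Hif1a* rose by 0.96 on the log2 scale.

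*Vhl* lies on the plus strand of chromosome 6 from 113623959 to 113631633 (ENSMUSG00000033933), and loss of its product leaves HIF alpha stable in oxygen. Control replicates 1 and 3 stood at 39.8 and 39.1 CPM, whereas TRC replicate 1 reached 59.5 CPM and TRC replicate 3 reached 113 CPM. Both TRC libraries were above the controls, and replicate 3 was far above replicate 1. The log2 fold change was 1.13 (SE 0.31, FDR = 0.00183 in the exact test). Without TRC replicate 3 it was 0.58 and *Vhl* was not called, in a fit that holds 1 TRC library and so has less power. Against the summed alpha subunits, the log2 ratio of *Vhl* per kilobase was −1.69 and −1.91 in the control libraries, −2.34 in TRC replicate 1 and −0.99 in TRC replicate 3, so the ratio did not separate the groups.

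Ordered by level per kilobase in control cells (CPM per kilobase, mean ± SD, n = 2), *Hif1a* came first at 44.1 ± 4.44, followed by *Egln1* at 19.8 ± 0.692. *Egln2*, *Vhl*, *Hif1an* and *Arnt* followed at 14.8 ± 3.35, 13.2 ± 0.162, 11.7 ± 2.18 and 10.9 ± 0.889, and each of these overlapped its neighbour in the order. *Epas1* was at 1.90 ± 0.0428, *Arnt2* at 0.757 ± 0.186, *Egln3* at 0.452 ± 0.113 and *Hif3a* last. In TRCs *Egln1* came first at 146 ± 79.3 and *Hif1a* next at 85.5 ± 17.8, but the libraries of these genes overlapped. *Vhl* followed at 28.9 ± 12.7, then *Arnt* at 12.9 ± 0.042 and *Egln2* at 11.6 ± 2.003, which overlapped, and *Hif1an* at 8.92 ± 0.309 and *Egln3* at 7.47 ± 2.83, which also overlapped. *Epas1* at 2.31 ± 0.144 and *Arnt2* at 0.872 ± 0.699 stood below them in both TRC libraries, above *Hif3a*. Among all genes tested with a known length, 94.2% had a lower mean level per kilobase over the 4 libraries than *Hif1a* and 95.8% a lower one than *Egln1*, against 31.6% for *Egln3* and 9.15% for *Arnt2*.

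The sequences just before and after the start site of the 4 upregulated genes are shown because HIF binds short DNA motifs, ACGTG and GCGTG. The sequences are from RefSeq on GRCm38.p6 and run from 250 bases before to 50 bases after the start site, 5′ to 3′ on the strand of the gene, with matches to either motif on either strand in capitals. Matches that share bases, such as the ACGTG on each strand of the run CACGTG, were counted as 1 site.
Egln1, chr8:124949205-124949504, minus strand: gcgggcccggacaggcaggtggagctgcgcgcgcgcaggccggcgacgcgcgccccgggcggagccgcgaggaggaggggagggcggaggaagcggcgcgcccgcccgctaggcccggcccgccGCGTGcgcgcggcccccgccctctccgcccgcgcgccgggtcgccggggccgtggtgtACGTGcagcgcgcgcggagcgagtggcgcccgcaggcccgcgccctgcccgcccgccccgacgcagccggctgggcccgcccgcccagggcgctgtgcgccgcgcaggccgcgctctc
Egln3, chr12:54203825-54204124, minus strand: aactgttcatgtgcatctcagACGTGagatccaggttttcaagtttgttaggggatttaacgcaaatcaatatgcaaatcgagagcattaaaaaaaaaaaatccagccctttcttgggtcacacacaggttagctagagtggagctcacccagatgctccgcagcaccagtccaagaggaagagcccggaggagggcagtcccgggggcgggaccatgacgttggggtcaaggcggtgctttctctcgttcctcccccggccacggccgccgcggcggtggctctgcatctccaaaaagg
Hif1a, chr12:73907617-73907916, plus strand: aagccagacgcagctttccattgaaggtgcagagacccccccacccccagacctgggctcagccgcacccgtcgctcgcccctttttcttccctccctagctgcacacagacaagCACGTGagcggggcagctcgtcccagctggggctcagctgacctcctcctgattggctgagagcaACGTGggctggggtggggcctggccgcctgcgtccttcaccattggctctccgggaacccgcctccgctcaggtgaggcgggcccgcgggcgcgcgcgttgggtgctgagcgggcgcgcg
Vhl, chr6:113623744-113624043, plus strand: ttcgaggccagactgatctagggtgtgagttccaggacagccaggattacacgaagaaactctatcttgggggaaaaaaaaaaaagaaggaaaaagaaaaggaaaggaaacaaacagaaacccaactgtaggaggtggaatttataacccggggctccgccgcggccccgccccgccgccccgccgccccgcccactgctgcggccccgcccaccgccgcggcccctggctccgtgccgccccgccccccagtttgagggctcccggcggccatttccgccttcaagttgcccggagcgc
Over the 32851 windows of this table, 43.8% held at least 1 site and 17.3% at least 2. *Egln1* had 2 sites, GCGTG and ACGTG, and *Hif1a* also had 2, both ACGTG, of which the first lies in a CACGTG. *Egln3* had 1 and *Vhl* none in this window. Among the genes that did not pass the test, the window at 1 of the 2 start sites listed for *Egln2* had 5 sites, a number reached by 0.767% of all windows and by 2.104% of windows of like GC content, within 2 percentage points, while those of *Arnt2* and *Hif1an* had none. The other *Egln2* window and that of *Arnt* had 1 site each, and no window was available for *Epas1*. The window of *Hif3a*, the gene that was not tested, had 2 sites. The number of sites in these windows therefore did not follow the order of the changes. Windows of like GC content held at least 1 site in 60.0% of cases for *Egln1* (65 such windows), 73.5% for *Hif1a*, 44.9% for *Egln3* and 65.6% for *Vhl*, and at least 2 sites in 24.6% for *Egln1* and 39.9% for *Hif1a*. The window of *Hif1a* ends at 73907916, inside the annotated gene, since GENCODE places a further start upstream, and counts per gene do not tell the start sites apart.

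The TRC libraries differed from each other in the genes that rose. On the log2(CPM + 0.5) scale, TRC replicate 3 exceeded replicate 1 by 1.17 in *Egln1*, by 0.92 in *Vhl* and by 0.77 in *Egln3*, and only 1.94%, 3.94% and 6.10% of the genes tested differed more between these libraries. *Hif1a* went the other way, with −0.43 for replicate 3 minus replicate 1, and 21.1% of the genes tested differed more. The control libraries differed by 0.071 in *Egln1*, by −0.025 in *Vhl*, by 0.36 in *Egln3* and by 0.21 in *Hif1a*. TRC replicate 3 is also the library with the larger share of alignments that were not unique, and the part of that in these differences was not tested.

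A list of 41 widely described HIF target genes, which leaves out the 10 genes above and was written with earlier results of these data known, showed the same order of the TRC libraries. Of the 35 target genes tested, 28 were upregulated in TRCs and 1 was downregulated, beside 8.81% and 7.05% of all genes tested, with a median log2 fold change of 1.87 against 0.0034 for all genes tested. TRC replicate 3 exceeded TRC replicate 1 in 33 of the 35, by a median of 0.98, against 50.1% of all genes tested with a median of 0.00068. Between the control libraries replicate 3 was higher in 20 of the 35, with a median of 0.17. Relative to the mean of the controls, the median of the target genes was 1.38 in TRC replicate 1 and 2.30 in TRC replicate 3, and these values share the control libraries. *Hif1a* mRNA was thus lower in the TRC library in which the target genes, *Egln1*, *Egln3* and *Vhl* were higher. Its difference between these libraries was a common one, since 21.1% of the genes tested differed more.

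**Figure D4:**
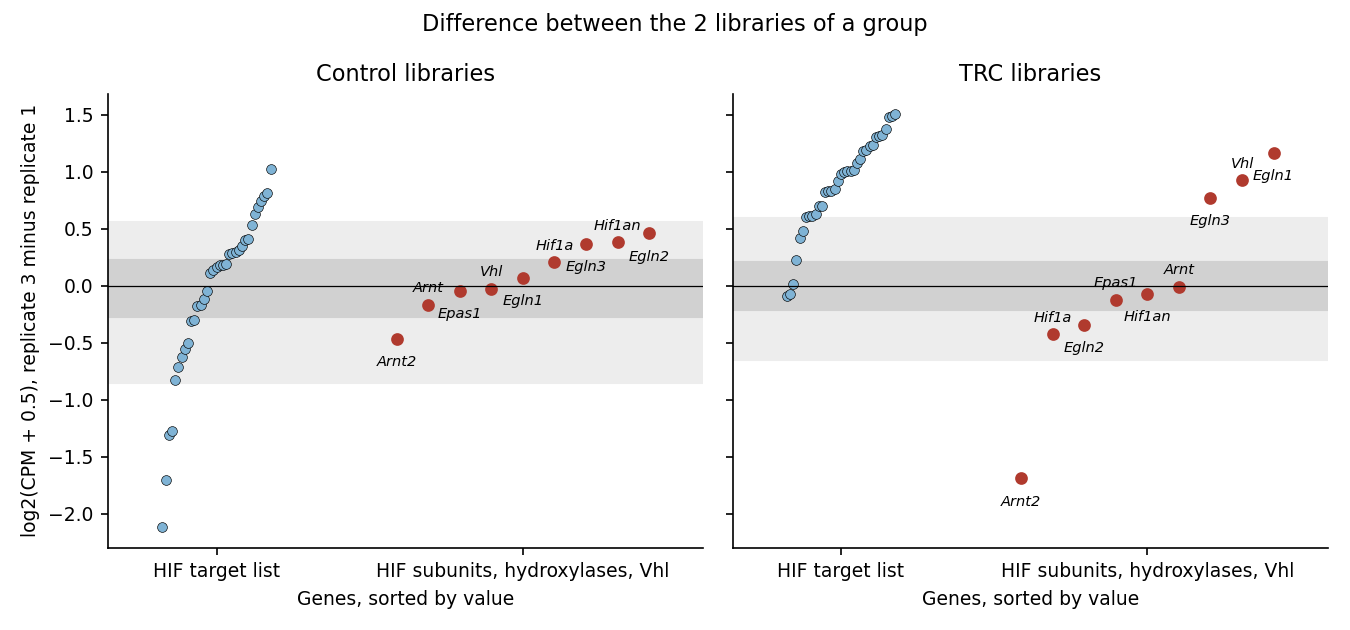
Difference between replicate 3 and replicate 1 on the log2(CPM + 0.5) scale (y axis) for control libraries, left, and TRC libraries, right. Blue points are the 35 HIF target genes tested and red points the 9 HIF subunit, hydroxylase and *Vhl* genes tested, each sorted by value, and the grey bands hold the middle 50% and 90% of all genes tested. In the TRC libraries 33 of the 35 blue points lie above 0, together with *Egln1*, *Vhl* and *Egln3*, while *Hif1a* and *Arnt2* lie below 0.

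The 6 target genes with the smallest FDR were *Bnip3*, a mitophagy receptor, *Plod2*, a collagen lysyl hydroxylase, *Ankrd37*, *Pdk1*, a kinase that restrains pyruvate dehydrogenase, *Slc16a3*, a lactate exporter, and *Ero1l*, an oxidase of the endoplasmic reticulum. *Bnip3* was at 29.2 and 19.7 CPM in the control libraries and at 476 and 1239 CPM in TRC replicates 1 and 3. *Pdk1* was at 17.2 and 11.0 CPM in the control libraries and at 155 and 436 CPM in TRC replicates 1 and 3. Both genes therefore showed the order seen for *Egln1*, with replicate 3 above replicate 1 in TRCs. The log2 fold changes of the 6 genes ranged from 2.86 for *Plod2* to 5.58 for *Ankrd37*. The gene called lower was *Pfkfb3*, a regulator of glycolysis named after its values were seen, with a log2 fold change of −0.72 (FDR = 0.0375 in the exact test). *Pfkfb3* was not called by the quasi-likelihood test, with no filter on low counts, or when TRC replicate 1 or TRC replicate 3 was left out. *Epo*, *Lox*, *Stc2* and *Cxcr4*, also named after their values were seen, had no count in any library.

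None of the partners of VHL was called. VHL works in a ubiquitin ligase with elongins B and C, cullin 2 and RBX1, which is switched on by the ubiquitin-like protein NEDD8. Of 12 genes of this machinery and its opposing deubiquitinases, all 12 were tested and 0 were called by edgeR's exact test, by edgeR's quasi-likelihood test or by DESeq2, and 0 had an unadjusted p under 0.05 in the exact test. Their log2 fold changes ranged from −0.35 to 0.15, with a median of 0.0031. Over all genes tested 15.9% were called. *Cul2* was at 68.9 and 77.4 CPM in the control libraries and 73.3 and 78.0 CPM in TRC replicates 1 and 3, and is given as an example chosen after its values were seen.

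A further 15 genes have products that act on the stability of HIF alpha or of the prolyl hydroxylases. In the exact test 3 of the 15 were downregulated and 0 upregulated. At an unadjusted p under 0.05 in that test, 1 was higher and 4 were lower. The median log2 fold change was −0.037. Across all genes tested 15.9% were called and 7.05% were called lower. Those downregulated were *Mdm2*, the p53 ubiquitin ligase, at −0.71 (FDR = 0.0132), *Senp1*, a SUMO protease, at −0.62 (FDR = 0.0388), and *Siah1b*, a ubiquitin ligase gene whose family acts on prolyl hydroxylases, at −1.10 (FDR = 0.0324). *Siah1b* has a close paralog in *Siah1a*, so its counts are uncertain. None of these 3 calls held when control replicate 3, TRC replicate 1 or TRC replicate 3 was left out, with 0 of the 15 genes then called lower, and *Senp1* also had an FDR of 0.0606 without control replicate 1. The log2 fold changes with a library left out were −0.73 to −0.71 for *Mdm2*, −1.21 to −0.99 for *Siah1b* and −0.74 to −0.53 for *Senp1*, so the direction was kept.

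Of 14 genes of coactivators and their competitors, 13 were tested, and 2 were upregulated and 2 downregulated, beside 8.81% higher and 7.05% lower over all genes tested, with a median log2 fold change of −0.22. *Cited1*, a member of a family that binds p300 and CBP, rose from a mean of 14.9 ± 3.94 (SD) to 80.9 ± 50.2 (SD) CPM over 2 libraries each, or by 2.44 in log2 (SE 0.40, FDR = 3.95e-08 in the exact test), and was higher in TRC replicate 3, at 116 CPM, than in replicate 1, at 45.4 CPM. *Cited2*, a target of HIF that competes with it for p300, had a log2 fold change of 0.16 (FDR = 0.756) and is named after its values were seen. *Cdk8*, a kinase of the Mediator complex, fell by 0.79 on the log2 scale (FDR = 0.00496), and *Smarca2*, an ATPase of chromatin remodelling, rose by 0.84 (FDR = 0.0306), while *Ruvbl1*, named after its values were seen, fell by 0.68 (FDR = 0.0392). *Ep300* and *Crebbp* themselves, also named after their values were seen, had log2 fold changes of −0.22 and −0.38 with FDR values of 0.553 and 0.295. Without TRC replicate 1, *Cited1* was the coactivator gene that was called, *Smarca2* was at 0.39 in log2 (FDR = 0.572) and *Cdk8* at −0.75 (FDR = 0.130), and without TRC replicate 3 *Cdk8* was at −0.84 (FDR = 0.0750).

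HIF subunits belong to the bHLH-PAS family of transcription factors. Of 14 other genes of this family and the related PER genes, 8 were tested, and 1 was upregulated and 0 downregulated in the exact test, while 3 were higher and 1 was lower by unadjusted p below 0.05. The share called is near the 15.9% of all genes tested. *Per3*, a gene of the circadian clock, rose from a mean of 4.01 ± 0.942 (SD) to 15.2 ± 0.00945 (SD) CPM over 2 libraries each, or by 1.92 in log2 (SE 0.33, FDR = 3.63e-05 in the exact test). The quasi-likelihood test called 1 gene of this list and DESeq2 called 3. Of 21 other dioxygenases that use oxygen, 19 were tested, and 6 were upregulated and 0 downregulated in the exact test, beside 8.81% higher and 7.05% lower over all genes tested. At an unadjusted p under 0.05 in that test, 8 dioxygenase genes were higher and 3 lower. The histone demethylase genes *Kdm5b* and *Kdm4b* had log2 fold changes of 2.33 and 1.74, and *Tet1*, an enzyme that oxidises methylated cytosine, had 1.88, with FDR values of 1.71e-12, 6.85e-07 and 0.000558 in the exact test, and *Kdm4b* is also in the list of target genes. *Tet1* was at 6.07 and 15.7 CPM in the control libraries and 26.9 and 53.4 CPM in TRC replicates 1 and 3, and without TRC replicate 3 its FDR was 0.120. The quasi-likelihood test called 3 dioxygenase genes, and without TRC replicate 3 the exact test called 2.

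**Figure D5:**
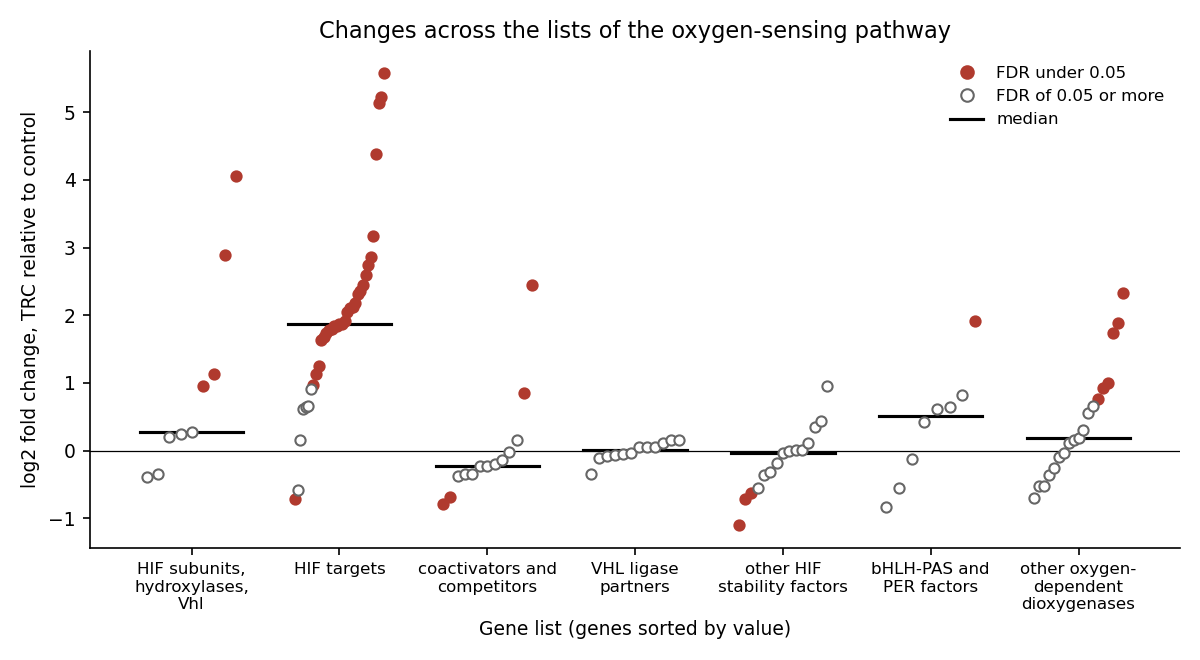
Log2 fold change of TRCs relative to control cells (y axis) for the tested genes of each list (x axis), sorted by value within a list. Filled points had an FDR under 0.05 in the exact test, open points did not, and black lines are medians. The HIF target list has its median at 1.87, and the 12 partners of VHL lie between −0.35 and 0.15 with no filled point.

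The genes with the pattern most like that of a given gene were sought among 8913 tested genes with a symbol and a mean of at least 10 CPM, by the Euclidean distance between log2(CPM + 0.5) values of the 4 libraries after centring. Nearest to *Hif1a* were *Sesn3*, *Psen2* and *Abhd6*, at distances of 0.0933, 0.122 and 0.127, and 350 genes lay within 0.5. Nearest to *Egln1* were *Pfkl*, the liver phosphofructokinase, *Mpp2* and *Fam162a*, at 0.232, 0.273 and 0.329, with 6 genes within 0.5. *Pfkl* was at 55.4 and 57.7 CPM in the control libraries and 215 and 586 CPM in TRC replicates 1 and 3, which shows the same order of libraries as *Egln1*. No candidate lay within 0.5 of *Egln3*, and the nearest were *Smtnl2*, *Ak4* and *Epm2a*, at 0.571, 0.583 and 0.720. With 4 libraries many genes can share a pattern, and likeness is given as a description.

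The annotation bears on how these counts were made. *Hif1a* shares 330 exonic bases with the antisense gene *Gm15283*, which had between 0 and 5 counts per library, and 148 with *Gm49321*, a gene on the same strand that is not listed in the count files. *Egln2* shares 11 exonic bases with *Cyp2t4* on the opposite strand, which had 0 counts in every library. The strand setting of the counting is not given in the sources used here. Of the remaining 8 genes, *Arnt2* shares 214 bases with *Gm30873* on the opposite strand, and the other 7 share no exonic base with another annotated gene.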

How the data were processed

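Polyadenylated RNA of 2 parental B16F1 control libraries and 2 TRC libraries was sequenced from a stranded kit. The deposited values are raw counts of reads per Ensembl gene, which the authors made by trimming with Trimmomatic 0.35, aligning to GRCm38 with TopHat2 2.1.0 and Bowtie2 2.2.6, and counting with HTSeq. The strand setting and overlap mode of the counting are not given in the sources used here, and reads with more than 1 alignment were not counted, which lowers genes with close copies.

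Counts were normalized by TMM in edgeR 4.0.16 (R 4.3.3), genes with at least 1 CPM in at least 2 libraries were kept, and TRCs were compared with control cells by edgeR's two-sided exact test (common, then tagwise dispersions, prior count 0.125), with p-values of 11483 genes adjusted by Benjamini-Hochberg (FDR threshold 0.05). The test, normalization and type of filter follow the study's methods, but the set of genes tested is the one this filter left here and is not the study's own set. The biological coefficient of variation was 21.2%. Standard errors and 95% intervals of log2 fold changes came from DESeq2 1.42.0. Depth was 35948295 to 43511554 counts per library. Exonic lengths and positions came from GENCODE M21. Shares and ratios per kilobase were compared by exact permutation tests. The scripts were tested on simulated data.

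The members and the gene lists were chosen with earlier results of these data known. The genes named by rule were the 10 members and, in each list, the called genes with the smallest FDR. These were up to 6 HIF targets and up to 3 genes of every other list. The 3 nearest patterns to *Hif1a*, *Egln1* and *Egln3* were also named by rule. Other genes, among them *Dct*, *Pfkfb3*, *Cul2* and *Ruvbl1*, were named outside this rule with their values known. The alternatives were the quasi-likelihood test with and without a replicate block, DESeq2, other size factors, other filters, other dispersions, raw counts in the shares, and each library left out in turn.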

Additional observations from a re-analysis of the deposited data

How the results depend on the processing

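*Egln1* and *Egln3* stayed called in the same direction under all 12 alternatives, and *Epas1*, *Arnt*, *Egln2* and *Hif1an* stayed uncalled with their direction kept. With each library left out in turn, where the lone library of a group is assumed to vary like the other group, the log2 fold change of *Hif1a* ranged from 0.71 to 1.15, that of *Vhl* from 0.58 to 1.51 and that of *Arnt2* from −1.02 to 0.84, including −0.027 without control replicate 3. The number of genes called then ranged from 773 to 1932 against 1822, with 500 to 1078 higher and 269 to 854 lower. The quasi-likelihood test called 1054 genes, 567 higher and 487 lower, and called *Hif1a* and *Vhl* at FDR 0.0363 and 0.0469.

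The numbers 1 and 3 in both groups are not stated to mark a shared day or culture, and the deviations of same-numbered libraries had a correlation of 0.027. With the number as a block, the quasi-likelihood test called 785 genes, 784 of them also called by the exact test, with 477 higher and 308 lower. In the block fit the log2 fold change of *Vhl* was 1.06 (FDR = 0.0609 in edgeR), that of *Arnt2* −0.036 and that of *Hif1a* 0.94 (FDR = 0.0499 in edgeR).

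The target gene called lower was not called by the quasi-likelihood test, the block fit or the fit with no filter (0 genes each), and 0 to 1 were called lower with a library left out. The quasi-likelihood test called 2 coactivator genes, 1 stability gene and 3 dioxygenase genes, and the block fit 0 stability genes and 3 dioxygenase genes. In the bHLH-PAS list DESeq2 called 3 genes and the fit with no filter 2. Leaving out a library gave 1 to 4, 0 to 4, 2 to 7 and 1 to 2 calls in the coactivator, stability, dioxygenase and bHLH-PAS lists. The TRC minus control difference in the share of *Egln3* was 2.52 percentage points with raw counts. With a library left out, the difference in share ranged from −0.016 to 0.0018 percentage points for *Hif3a*, including 0.00031 without control replicate 1, and from −3.62 to 3.08 for *Arnt2*, including 0.438 without control replicate 1, and the log2 ratio of *Vhl* to the alpha subunits from −0.54 to 0.81. The causes were not tested. Counts of 0 to 5 limit what can be said of *Hif3a*.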
